A study of Mus musculus with 2 samples.

Results

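The 39 Hox genes of the mouse were followed across the cell types of an injured hindlimb, in a model of bone formation outside the skeleton. Whether bone formed was not read here. They were taken as every symbol of the feature list made of Hox, a cluster letter from a to d and a number, which gave 39 of 32285 genes, with 11 in HoxA, 10 in HoxB, 9 in HoxC and 9 in HoxD. Counts of unique molecular identifiers (UMIs, each standing for 1 captured transcript) showed 38 of the 39 in at least 1 kept cell, and 34 had at least 20 UMIs over both libraries. Hoxd12 had 0 UMIs in both.

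Hox genes encode homeodomain transcription factors that give cells their address along the body axis and along the limb. They lie in 4 clusters, and a gene's number (its paralogue group) follows its place in the cluster: low numbers are used toward the head, high numbers toward the tail and the tip of the limb. Adult connective tissue, vessels and skin keep part of this embryonic pattern.

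The irradiated library came from male C57BL/6 mice (C57BL/6J in the protocol) of 8 to 10 weeks that had a dorsal burn over 30% of the body surface, transection of the left Achilles tendon and a single X-ray dose of 7 Gy to the injury. The control library came from mice of the same strain, sex and age with the same burn and transection and no irradiation. The series text points to day 3 for the irradiation of the sequenced mice, while the protocol lists arms irradiated on day 1 and on day 3, and neither states how many mice a library pools. In both, the tendon injury site was taken on day 7 and digested, and the unsorted cells went through droplet 3′ sequencing. An uninjured limb was not analysed here.

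With 1 library per group there is no replicate check and no test. Intervals are exact 95% Poisson limits for levels and exact (Clopper-Pearson) 95% binomial limits for shares, and they cover counting error only. The kept cells numbered 7070 in the irradiated and 8744 in the control library, with a median of 10090 and 13242 UMIs per cell, and held 17792 and 32963 Hox UMIs. The libraries shared 32 cell barcodes. A level is the UMI count of a gene over a class, divided by the UMI total of that class and scaled to the usual unit CPM. UMIs count the 3′ ends of transcripts, so levels were not divided by transcript length, and how well each gene's end is captured is unknown. In such sums, fewer expressing cells and less RNA per cell cannot be told apart..

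Cell classes were named from fixed markers, with the Hox genes kept out of the clustering, and carry the suffix -like. Class names were rebuilt from the counts, so another annotation could place cells elsewhere. The fibroblast-like class had 362 irradiated and 1752 control cells, and different subsets held most of it: 240 of the 362 irradiated cells were progenitor fibroblast-like (Pi16 and Clec3b among the markers), against 376 of the 1752 control cells, while injury fibroblast-like cells (Pdzrn4 and Ptx3) numbered 27 irradiated and 644 control, myofibroblast-like cells 65 irradiated and 461 control and dividing fibroblast-like cells 30 irradiated and 271 control. Leading genes of the myofibroblast-like subset were Crabp1, Cxcl3, Clstn2, Il1rl1 and Hmga2, with Clstn2 on its fixed list. The contractile genes Acta2 and Tagln of that list were not among its 10 leading genes, though 5 listed markers counted as raised. Its marker score, 1.21, was the lowest of the named subsets, and at resolution 2.0 it held 15 irradiated and 284 control cells. Tendon-like cells numbered 92 irradiated and 334 control. Their leading genes were Tnmd, Mmp13, Kera, Scx, Fmod and Col2a1, the last of them on the fixed list of cartilage-cell markers. The part of cartilage-like cells in this class, and in its Hox levels, was not tested. Mural-like cells (pericytes and vascular smooth muscle) numbered 181 irradiated and 280 control, endothelial-like cells 308 irradiated and 511 control, lymphatic endothelial-like cells 44 irradiated and 58 control, Schwann-like cells 133 irradiated and 102 control and keratinocyte-like cells 1258 irradiated and 2112 control.

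Endothelial-like cells carried the highest summed Hox level of the named classes, at 456 CPM (437 to 475) in irradiated and 447 CPM (433 to 460.1) in control cells. Lymphatic-like cells followed with 412 CPM (371 to 455) in irradiated and 361 CPM (322 to 404) in control cells. The intervals of these 2 classes overlapped in the irradiated library and did not in the control library. Mural-like cells had 260.4 CPM (244 to 277) in irradiated and 281 CPM (265 to 296) in control cells, and keratinocyte-like cells 245 CPM (240.4 to 250.3) in irradiated and 246 CPM (241 to 249.8) in control cells. Tendon-like cells had 203 CPM (188 to 219) in irradiated and 194 CPM (185 to 204) in control cells, and fibroblast-like cells 193 CPM (185 to 202) in irradiated and 195 CPM (191 to 199) in control cells. Tendon-like and fibroblast-like cells did not differ beyond counting error in either library, nor did irradiated mural-like and keratinocyte-like cells. Schwann-like cells were lower, at 44.4 CPM (34.9 to 55.5) in irradiated and 56.8 CPM (44.7 to 71.2) in control cells, and macrophage-like cells lower again, at 14.6 CPM (13.2 to 16.2) in irradiated and 16.9 CPM (15.02 to 19.03) in control cells.

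Neutrophil-like cells, blood leukocytes used here as a gauge of free RNA in the droplets, had 5.56 CPM (3.78 to 7.90) in irradiated and 12.1 CPM (8.14 to 17.2) in control cells. At least 1 Hox UMI was seen in 2.08% (1.36 to 3.03) of irradiated and 2.40% (1.47 to 3.68) of control neutrophil-like cells, whose median depths were 3116 UMIs in irradiated and 2107 UMIs in control cells. In fibroblast-like cells, of median depth 24468 UMIs in irradiated and 25892 UMIs in control cells, the share was 88.1% (84.3 to 91.3) of irradiated and 93.6% (92.3 to 94.7) of control. Depth enters these shares, so every cell was also thinned to 2000 UMIs. A Hox UMI then remained in 60.2% of irradiated and 57.5% of control endothelial-like cells, 44.1% of irradiated and 47.5% of control mural-like cells and 41.1% of irradiated and 40.02% of control keratinocyte-like cells. It remained in 35.2% of irradiated and 28.7% of control tendon-like cells and 26.2% of irradiated and 32.9% of control fibroblast-like cells, against 1.11% of irradiated and 1.30% of control neutrophil-like cells. Thinning left out 11 irradiated and 40 control fibroblast-like and 166 irradiated and 372 control neutrophil-like cells that were shallower.

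Single cells showed several members at once. The median number of different Hox genes per cell was 3 in both libraries for fibroblast-like and mural-like cells, 4 in both for tendon-like and keratinocyte-like cells, and 4 in irradiated and 5 in control endothelial-like cells. The most in 1 cell was 19 in the irradiated and 23 in the control library, both in keratinocyte-like cells.

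**Figure D1:**
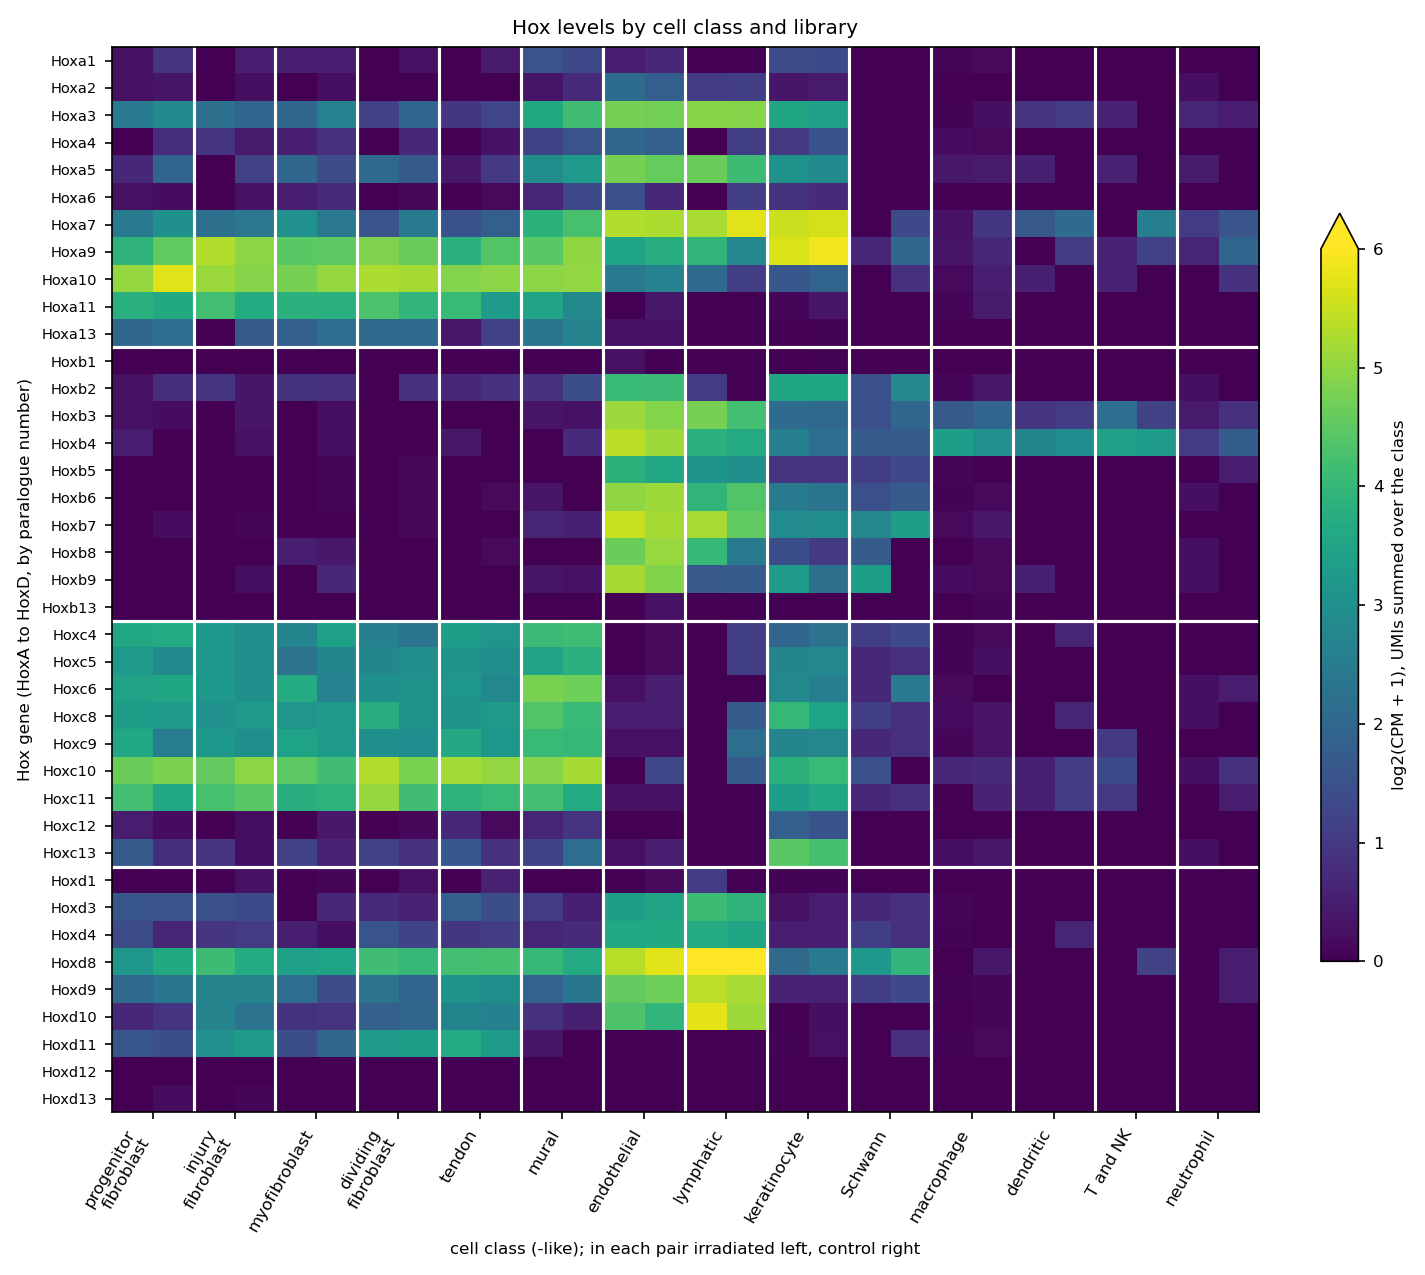
Level of each of the 39 Hox genes in the cell classes, irradiated left and control right within each class, as log2(CPM + 1) on UMIs summed over the class; the colour scale stops at 6. HoxC genes were bright in fibroblast, tendon and mural columns and dark in endothelial ones, HoxB genes the reverse, and macrophage columns showed little beyond Hoxb3 and Hoxb4.

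Fibroblast-like cells used HoxA, HoxC and HoxD, and hardly HoxB. HoxC gave 46.95% (44.7 to 49.2) of the Hox UMIs in irradiated and 40.7% (39.7 to 41.7) in control cells, HoxA 41.2% (38.96 to 43.4) in irradiated and 44.98% (43.9 to 46.01) in control cells and HoxD 11.5% in irradiated and 13.6% in control cells. HoxB gave 0.416% in irradiated and 0.690% in control cells, from 8 UMIs in irradiated and 62 in control cells over 10 genes. Genes numbered 9 to 13 held 69.4% of the Hox UMIs in irradiated and 70.9% in control cells.

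Members of paralogue group 10, which in mice set lumbar identity, led the class. Hoxa10 stood at 31.7 CPM (28.3 to 35.4) in irradiated and 34.8 CPM (33.1 to 36.6) in control fibroblast-like cells and was seen in 49.7% of irradiated and 51.7% of control cells, against 0% of irradiated and 0.240% of control neutrophil-like cells. Hoxc10 stood at 25.5 CPM (22.5 to 28.9) in irradiated and 25.5 CPM (24.1 to 27.05) in control cells. Hoxa9, also known from myeloid leukaemia, had 20.5 CPM (17.8 to 23.5) in irradiated and 25.2 CPM (23.8 to 26.7) in control cells.

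Paralogue group 11 patterns the lower part of the limb in mice. Hoxc11 had 18.8 CPM (16.2 to 21.7) in irradiated and 16.7 CPM (15.5 to 17.9) in control cells and Hoxa11 14.4 CPM (12.1 to 16.9) in irradiated and 12.7 CPM (11.7 to 13.8) in control cells. Hoxd11, the third member, was lower, with 3.62 CPM (2.53 to 5.01) in irradiated and 6.34 CPM (5.63 to 7.11) in control cells. The genes of the hand and foot, paralogue group 13, were scarce: Hoxa13 had 2.61 CPM in irradiated and 3.02 CPM in control cells and Hoxd13 0 UMIs in irradiated and 2 in control cells.

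The rest of the 12 highest members were Hoxd8, Hoxd11 or a HoxC gene. Hoxd8 had 10.8 CPM (8.81 to 13) in irradiated and 12.1 CPM (11.1 to 13.1) in control cells. Hoxc8 had 9.25 CPM in irradiated and 8.29 CPM in control cells, Hoxc9 9.95 CPM in irradiated and 6.97 CPM in control cells and Hoxc6 9.75 CPM in irradiated and 7.16 CPM in control cells. Hoxc4 had 8.54 CPM in irradiated and 7.68 CPM in control cells and Hoxc5 6.94 CPM in irradiated and 6.38 CPM in control cells. The 5 HoxC genes thus lay between 6.94 and 9.95 CPM in irradiated and between 6.38 and 8.29 CPM in control cells. In mice these genes serve the neck and trunk. Hoxc5 and Hoxc10 share 166 annotated exon bases. Hoxd3 and Hoxd4 share 62.3% and 52.3% of their exon bases with each other or a neighbouring gene model, so the split of counts between Hoxd3 and Hoxd4 is uncertain.

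Tendon-like cells had the same leading pair with more HoxD. Hoxc10 had 35.2 CPM (29.04 to 42.2) in irradiated and 31.6 CPM (27.95 to 35.5) in control cells, Hoxa10 28.8 CPM (23.2 to 35.2) in irradiated and 29.97 CPM (26.5 to 33.8) in control cells and Hoxd8 17.4 CPM (13.2 to 22.6) in irradiated and 17.7 CPM (14.99 to 20.7) in control cells. HoxD made up 22.6% (19.5 to 26) of their Hox UMIs in irradiated and 21.7% (19.8 to 23.7) in control cells. Members were compared between classes by size. A member counts as higher or lower where the 2 levels lie 1.5-fold or more apart, the interval of their ratio leaves out equality and the pair holds 20 UMIs or more. Of 19 members compared with fibroblast-like cells in both libraries, 2 were higher in both (Hoxd9 and Hoxd10), beside 3.29% of all genes, and 3 lower in both (Hoxa3, Hoxa7 and Hoxa13), beside 9.69%.

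Within the mesenchyme, HoxD genes numbered 8 to 11 differed between subsets. They lie side by side on chromosome 2, and their RefSeq promoter windows (GRCm38.p6, forward strand, 250 bases before to 50 after the start) are shown because these 4 genes were higher in tendon-like than in progenitor fibroblast-like cells of both libraries. Capitals mark CpG dinucleotides.
Hoxd11 (chr2:74682073-74682372): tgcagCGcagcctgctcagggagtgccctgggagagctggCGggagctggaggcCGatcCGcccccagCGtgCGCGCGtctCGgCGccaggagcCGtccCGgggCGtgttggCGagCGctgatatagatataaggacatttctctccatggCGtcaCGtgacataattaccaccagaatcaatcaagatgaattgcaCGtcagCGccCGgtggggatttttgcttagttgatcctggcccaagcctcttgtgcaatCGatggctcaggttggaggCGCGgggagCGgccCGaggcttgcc
Hoxd10 (chr2:74691641-74691940): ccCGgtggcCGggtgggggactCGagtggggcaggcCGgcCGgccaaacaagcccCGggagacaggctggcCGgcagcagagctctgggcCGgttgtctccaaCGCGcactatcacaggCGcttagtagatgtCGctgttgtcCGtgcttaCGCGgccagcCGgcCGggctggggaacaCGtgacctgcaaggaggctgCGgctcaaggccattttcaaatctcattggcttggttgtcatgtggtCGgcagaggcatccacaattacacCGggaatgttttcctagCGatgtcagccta
Hoxd9 (chr2:74697513-74697812): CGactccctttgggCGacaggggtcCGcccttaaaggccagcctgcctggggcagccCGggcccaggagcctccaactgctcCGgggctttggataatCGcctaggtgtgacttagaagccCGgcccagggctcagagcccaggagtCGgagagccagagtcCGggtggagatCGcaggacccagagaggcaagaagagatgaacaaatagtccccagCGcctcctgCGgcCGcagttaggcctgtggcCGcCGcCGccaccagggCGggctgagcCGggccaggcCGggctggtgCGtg
Hoxd8 (chr2:74704365-74704664): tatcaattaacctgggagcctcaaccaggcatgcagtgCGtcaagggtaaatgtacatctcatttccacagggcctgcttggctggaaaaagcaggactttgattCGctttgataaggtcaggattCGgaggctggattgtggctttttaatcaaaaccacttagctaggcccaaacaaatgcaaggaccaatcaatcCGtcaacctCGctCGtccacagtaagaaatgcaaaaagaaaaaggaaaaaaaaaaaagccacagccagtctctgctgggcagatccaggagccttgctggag

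The windows shown for Hoxd11, Hoxd10 and Hoxd9 hold 25, 22 and 20 CpG, against 6 for Hoxd8 and a median of 7 over the 32851 windows of the table. A second Hoxd11 window, not shown, holds 4. RefSeq windows were found for 22 of the 39 members, 24 windows in all, with a median of 14.5 CpG. The motif TGATNNAT, a form of the joint Hox and Pbx binding site, read on both strands, occurred in 4 of the 24 windows, 1 of them the Hoxd11 window shown, and in 8.85% of all windows. A match is a match of letters, not a site.

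Hoxd11 had 11.9 CPM (8.48 to 16.3) in irradiated and 9.001 CPM (7.13 to 11.2) in control tendon-like cells. It had 9.02 CPM (4.93 to 15.1) in irradiated and 9.09 CPM (7.31 to 11.2) in control dividing fibroblast-like cells and 7.22 CPM (3.12 to 14.2) in irradiated and 9.04 CPM (7.66 to 10.6) in control injury fibroblast-like cells. Lower levels were found in myofibroblast-like cells, with 1.71 CPM (0.465 to 4.37) in irradiated and 2.97 CPM (2.08 to 4.11) in control cells, and in progenitor fibroblast-like cells, with 2.02 CPM (0.970 to 3.72) in irradiated and 1.72 CPM (0.886 to 2.996) in control cells. In the control library the intervals of the first 3 subsets lay above those of the last 2 without overlap.

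Against progenitor fibroblast-like cells, 16 members could be compared in tendon-like cells. Hoxd8, Hoxd9, Hoxd10 and Hoxd11 were higher in both libraries, beside 6.02% of all genes, and Hoxa3 lower, beside 11.5%. Hoxd10 had 5.51 CPM in irradiated and 5.24 CPM in control tendon-like cells, against 0.607 CPM in irradiated and 0.858 CPM in control progenitor fibroblast-like cells. Hoxd9 had 7.65 CPM in irradiated and 6.95 CPM in control tendon-like cells, against 3.23 CPM in irradiated and 4.002 CPM in control progenitor fibroblast-like cells. These levels were not particular to tendon-like cells. Injury fibroblast-like cells had Hoxd10 at 5.42 CPM in irradiated and 3.87 CPM in control cells and Hoxd9 at 5.42 CPM in irradiated and 5.40 CPM in control cells. Dividing fibroblast-like cells had Hoxd10 at 2.58 CPM in irradiated and 2.93 CPM in control cells and Hoxd9 at 3.86 CPM in irradiated and 2.83 CPM in control cells.

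Of 16 members compared in dividing fibroblast-like cells, Hoxc11 and Hoxd11 were higher and Hoxc4 lower in both libraries, beside 13.8% and 12.1% of all genes. In injury fibroblast-like cells 0 of 14 were higher or lower in both (beside 4.25% and 8.42%), with 27 irradiated cells. Hoxd10 and Hoxd11 were not among the 14, for want of irradiated UMIs. Their log2 ratios were 3.16 (0.93 to 5.79) and 1.84 (0.29 to 3.33) in irradiated and 2.17 (0.98 to 3.67) and 2.40 (1.55 to 3.38) in control cells. In the control library alone they and Hoxc11 were higher, and Hoxa3, Hoxa5, Hoxa7, Hoxa10, Hoxc4 and Hoxc6 lower. Hoxa9 and Hoxd8 were higher in the irradiated library alone. In myofibroblast-like cells 0 of 15 were higher or lower in both, beside 8.22% and 9.99%.

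**Figure D2:**
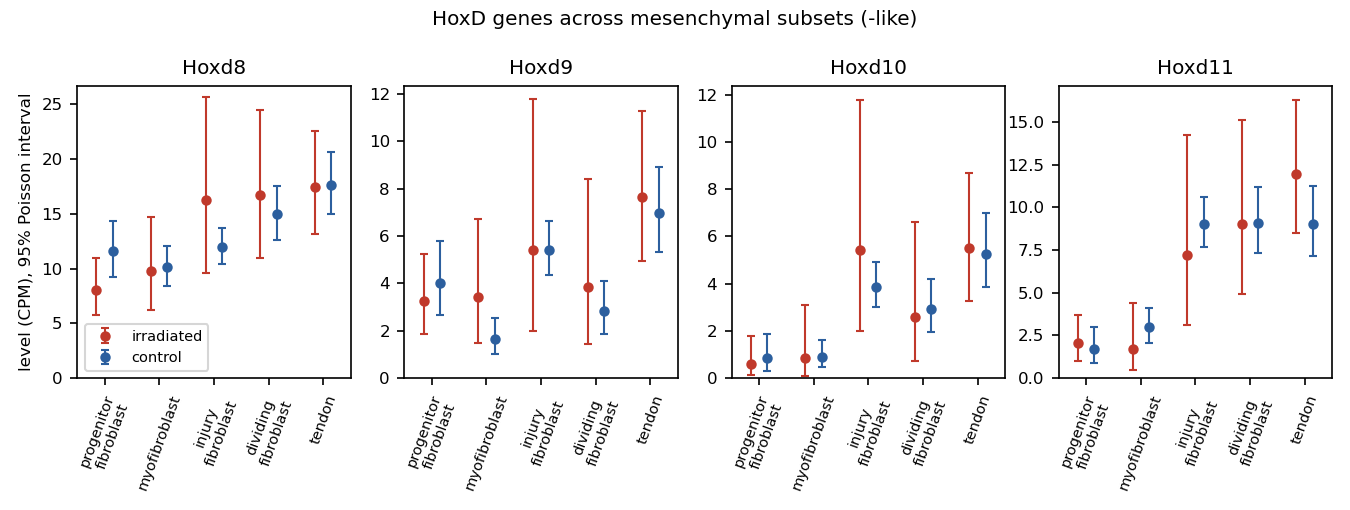
Levels (CPM) of Hoxd8, Hoxd9, Hoxd10 and Hoxd11 in mesenchymal subsets, irradiated left of control, with 95% Poisson intervals. Hoxd11 stood at 2.02 CPM in irradiated and 1.72 CPM in control progenitor fibroblast-like cells and at 11.9 CPM in irradiated and 9.001 CPM in control tendon-like cells.

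Mural-like cells had the fibroblast pattern with more genes of low number. Their highest members were Hoxc10, with 29.1 CPM (23.8 to 35.1) in irradiated and 35.3 CPM (30.1 to 41.2) in control cells, Hoxa10, with 29.9 CPM (24.6 to 36.04) in irradiated and 31.6 CPM (26.7 to 37.2) in control cells, and Hoxa9, with 20.9 CPM (16.5 to 26.2) in irradiated and 31.2 CPM (26.3 to 36.7) in control cells. Genes numbered 9 to 13 held 51.1% (47.9 to 54.4) of their Hox UMIs in irradiated and 51.8% (49.1 to 54.6) in control cells. Of 18 members compared with fibroblast-like cells, 7 were higher in both libraries, beside 16% of all genes, and 1 lower, beside 11.7%. The 7 were Hoxa3, Hoxa5, Hoxa7, Hoxc4, Hoxc6, Hoxc8 and Hoxc9, and the 1 was Hoxd11. Hoxc6, a gene of the thoracic region, had 26.9 CPM (21.9 to 32.8) in irradiated and 24.7 CPM (20.4 to 29.7) in control mural-like cells, against 9.75 CPM in irradiated and 7.16 CPM in control fibroblast-like cells. Fibroblast markers in mural-like cells summed to 11296 CPM in irradiated and 11589 CPM in control cells (4 of 10 higher in the irradiated library), above the class's own mural markers, at 7476 CPM in irradiated and 8571 CPM in control cells (2 of 8 higher in the irradiated library). Endothelial markers summed to 534 CPM in irradiated and 595 CPM in control cells (0 of 8 higher in the irradiated library) and keratinocyte markers to 1685 CPM in irradiated and 1424 CPM in control cells (5 of 15 higher in the irradiated library). The part of these other markers in the Hox levels of mural-like cells was not tested.

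Over the 39 genes, levels in mural-like and fibroblast-like cells had a Spearman rho of 0.91 in the irradiated and 0.86 in the control library, and those in tendon-like and fibroblast-like cells 0.94 and 0.95. For endothelial-like and fibroblast-like cells it was -0.13 and 0.01. These describe 39 genes in classes of 1 library, which share depth and free RNA.

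Endothelial-like cells, the lining of blood vessels, used HoxB, HoxD and the front of HoxA, with little HoxC. HoxB gave 52.4% (50.3 to 54.4) of their Hox UMIs in irradiated and 49.2% (47.7 to 50.7) in control cells, HoxA 25.02% in irradiated and 24.8% in control cells and HoxD 22.3% in irradiated and 25.2% in control cells. HoxC gave 0.260% (0.0955 to 0.565) in irradiated and 0.740% (0.506 to 1.04) in control cells, from 6 UMIs in irradiated and 32 in control cells over 9 genes. Genes numbered 9 to 13 held 20.4% in irradiated and 19.7% in control cells.

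Hoxd8 had 39.7 CPM (34.4 to 45.6) in irradiated and 51.7 CPM (47.3 to 56.4) in control cells, Hoxb7 44.5 CPM (38.9 to 50.7) in irradiated and 35.6 CPM (31.9 to 39.6) in control cells and Hoxa7 38.3 CPM (33.1 to 44.1) in irradiated and 37.7 CPM (33.9 to 41.7) in control cells, 3 genes that pattern the trunk. Hoxb4, better known from blood-forming stem cells, had 40.9 CPM (35.5 to 46.9) in irradiated and 34.1 CPM (30.5 to 37.9) in control cells, against 0.201 CPM in irradiated and 0.130 CPM in control fibroblast-like cells. Of 28 members compared, 16 were higher than in fibroblast-like cells in both libraries, beside 21.9% of all genes, and 12 lower, beside 18%. The 16 were Hoxb2 to Hoxb9, Hoxa3, Hoxa5, Hoxa7, Hoxd3, Hoxd4, Hoxd8, Hoxd9 and Hoxd10.

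The 12 lower members were Hoxa9, Hoxa10, Hoxa11, Hoxa13, Hoxd11 and 7 of HoxC. Hoxa11 had 0 UMIs in irradiated and 3 in control cells, Hoxd11 0 UMIs in irradiated and 0 in control cells and Hoxc10 0 UMIs in irradiated and 14 in control endothelial-like cells. Neighbours in HoxD thus differed: Hoxd10 had 19.2 CPM (15.5 to 23.4) in irradiated and 14.4 CPM (12.2 to 17.1) in control cells, while the count of 0 for Hoxd11 leaves an upper limit of 0.729 CPM in irradiated and 0.381 CPM in control cells. Fibroblast markers in endothelial-like cells summed to 209 CPM in irradiated and 1495 CPM in control cells (0 of 10 higher in the irradiated library). The part of these markers in the few HoxC UMIs was not tested.

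Lymphatic endothelial-like cells, the lining of lymph vessels, had more HoxD. HoxD gave 45.6% (40.6 to 50.8) of their Hox UMIs in irradiated and 43.5% (37.95 to 49.3) in control cells and HoxB 27.97% in irradiated and 23.5% in control cells. Hoxd8 had 64.1 CPM (48.8 to 82.7) in irradiated and 62.9 CPM (47.3 to 82.1) in control cells and Hoxd10 53.2 CPM (39.4 to 70.4) in irradiated and 33.8 CPM (22.6 to 48.5) in control cells. Against fibroblast-like cells, 10 of 22 members were higher and 6 lower in both libraries, beside 17.8% and 11.3% of all genes. The class was too small to compare the libraries.

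**Figure D3:**
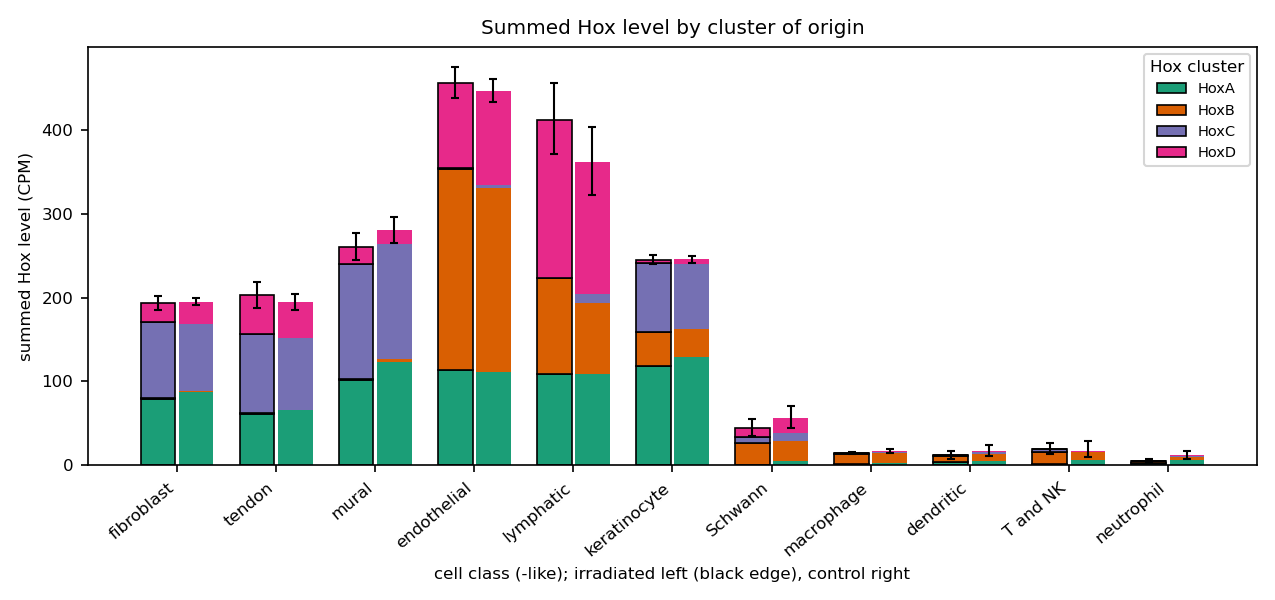
Summed Hox level (CPM, linear axis from 0) by class, irradiated left and control right, stacked by Hox cluster, with the 95% Poisson interval of the sum. Endothelial-like bars reach 456 and 447 CPM with HoxB as the largest part, and fibroblast-like bars reach 193 and 195 CPM and are mostly HoxA and HoxC.

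Keratinocyte-like cells, the cells of epidermis and hair follicle, combined HoxA, HoxC and some HoxB, with hardly any HoxD. HoxA gave 48.1% (47.1 to 49.2) of their Hox UMIs in irradiated and 52.4% (51.5 to 53.2) in control cells, HoxC 33.2% in irradiated and 31.4% in control cells, HoxB 16.8% in irradiated and 13.7% in control cells and HoxD 1.79% in irradiated and 2.52% in control cells. Hoxa9 had 49.2 CPM (46.99 to 51.5) in irradiated and 57.6 CPM (55.6 to 59.7) in control cells and was seen in 60.8% of irradiated and 61.1% of control cells, and Hoxa7 had 44.9 CPM (42.8 to 47.1) in irradiated and 47.7 CPM (45.8 to 49.5) in control cells. Hoxc13, which controls hair keratins and is needed for hair and nails, had 21.05 CPM (19.6 to 22.6) in irradiated and 17.8 CPM (16.7 to 18.9) in control cells.

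HoxA broke off between neighbours in these cells. Next to Hoxa9, Hoxa10 had 2.09 CPM (1.66 to 2.61) in irradiated and 2.85 CPM (2.42 to 3.34) in control cells and Hoxa11 0.0785 CPM in irradiated and 0.279 CPM in control cells. Against fibroblast-like cells, 17 of 32 members were higher in both libraries, beside 21.7% of all genes, and 11 lower, beside 27.2%. Among the 17 were Hoxb2 to Hoxb9, Hoxa9, Hoxc12 and Hoxc13, and the 11 were Hoxa10, Hoxa11, Hoxa13, Hoxc4, Hoxc10, Hoxc11, Hoxd3, Hoxd4, Hoxd8, Hoxd9 and Hoxd11. Hoxa11 had 3 UMIs in irradiated and 15 in control keratinocyte-like cells and Hoxd11 1 UMI in irradiated and 11 in control cells. Fibroblast markers in these cells summed to 239 CPM in irradiated and 1091 CPM in control cells (0 of 10 higher in the irradiated library). The part of these markers in the Hox counts was not tested.

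The level varied among the 7 keratinocyte-like clusters. Cluster 15, led by Krt15 and Cxcl14, genes of the hair follicle, had a summed Hox level of 555 CPM (532 to 579) in irradiated and 609.8 CPM (583 to 637) in control cells, against 156 CPM (145 to 169) in irradiated and 143 CPM (136 to 149) in control cells of cluster 14, led by Krt6b and Krt16. Hoxc13 had 83.1 CPM in irradiated and 117 CPM in control cells of cluster 15, against 6.93 CPM in irradiated and 6.36 CPM in control cells of cluster 14. The cluster make-up of the class differed between the libraries. Of 1258 irradiated and 2112 control cells, cluster 9 held 341 irradiated and 335 control cells, cluster 11 had 140 irradiated and 470 control, cluster 12 had 247 irradiated and 351 control and cluster 14 had 89 irradiated and 400 control. Cluster 15 held 260 irradiated and 225 control cells, cluster 20 had 152 irradiated and 240 control and cluster 26 had 29 irradiated and 91 control.

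**Figure D4:**
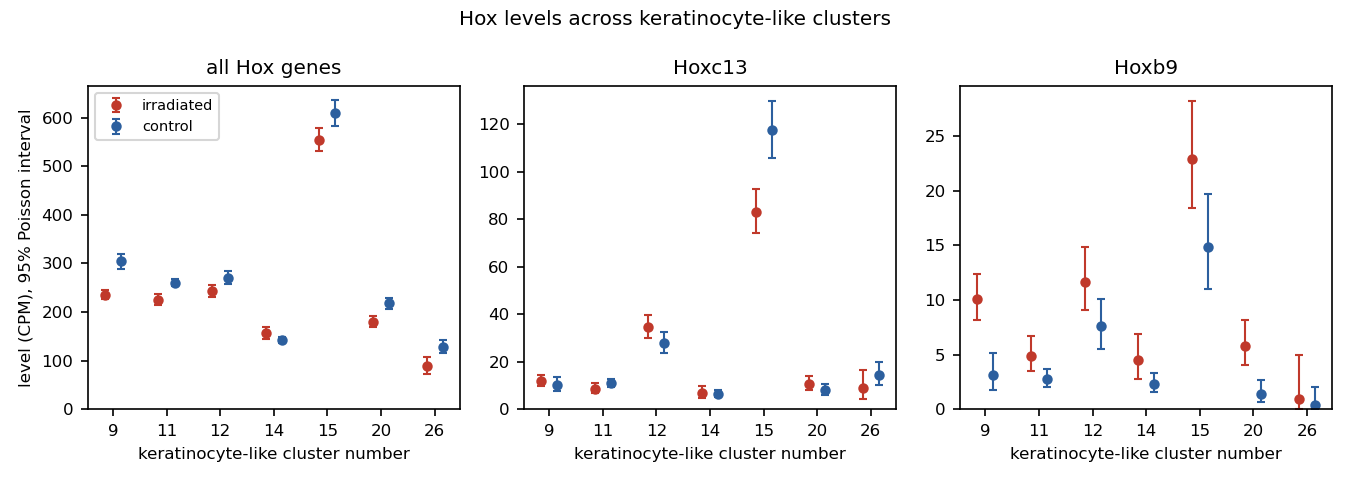
Summed Hox level, Hoxc13 and Hoxb9 (CPM) in the 7 keratinocyte-like clusters, irradiated left of control, with 95% Poisson intervals. Cluster 15 stands at 555 and 610 CPM in the first panel, and the irradiated Hoxb9 points lie above the control points, with 1 UMI in each library in cluster 26.

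Macrophage-like cells showed little Hox RNA apart from Hoxb4 and Hoxb3, both active in blood-forming cells. Hoxb4 had 9.28 CPM (8.15 to 10.5) in irradiated and 7.18 CPM (5.95 to 8.59) in control cells and was seen in 8.01% of irradiated and 5.76% of control cells, at a median depth of 9682 UMIs in irradiated and 7666 UMIs in control cells, against 0.480% of irradiated and 0.599% of control neutrophil-like cells. Hoxb3 had 2.26 CPM in irradiated and 2.87 CPM in control cells, and the next by mean level, Hoxc10, 0.603 CPM in irradiated and 0.658 CPM in control cells. Hoxb4 also led dendritic-like cells, with 5.65 CPM (3.01 to 9.66) in irradiated and 6.56 CPM (3.39 to 11.5) in control cells, and T and NK-like cells, with 9.78 CPM (5.89 to 15.3) in irradiated and 8.77 CPM (3.52 to 18.1) in control cells. Few UMIs stood behind the next genes: Hoxa7 had 5 UMIs in irradiated and 6 in control dendritic-like cells and 0 UMIs in irradiated and 4 in control T and NK-like cells.

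In macrophage-like cells Hoxb4 had 246 UMIs in irradiated and 120 in control cells and Hoxa9 7 UMIs in irradiated and 10 in control cells. Hoxb4 UMIs per Hoxa9 UMI thus came to 35.1 in irradiated and 12 in control macrophage-like cells. They came to 2 in irradiated and 0.857 in control neutrophil-like cells and 0.297 in irradiated and 0.149 in control cells of all kinds. Hoxb4 is the highest member of macrophage-like cells, so a high ratio there was given in advance. The ratios of both classes rest on few Hoxa9 UMIs, and the part of free RNA in these values was not tested. In neutrophil-like cells Hoxb4 had 6 UMIs in irradiated and 6 in control cells, Hoxa9 3 UMIs in irradiated and 7 in control cells and Hoxa7 6 UMIs in irradiated and 5 in control cells. Against fibroblast-like cells, 2 of 20 members were higher in macrophage-like cells in both libraries (Hoxb3 and Hoxb4), beside 22.6% of all genes, and 17 lower, beside 34.1%.

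Schwann-like cells, the glia of peripheral nerves, had 76 irradiated and 75 control Hox UMIs in all. Hoxd8 had 8.17 CPM (4.47 to 13.7) in irradiated and 14.4 CPM (8.67 to 22.5) in control cells and Hoxb7 5.84 CPM (2.80 to 10.7) in irradiated and 9.09 CPM (4.70 to 15.9) in control cells. Hoxb9 had 16 UMIs in irradiated and 0 in control cells, and the irradiated ones came from 2 of 133 cells. Of 16 members compared with fibroblast-like cells, 0 were higher and 12 lower in both libraries, beside 17.8% and 13.2% of all genes. Fibroblast markers in Schwann-like cells summed to 2316 CPM in irradiated and 5251 CPM in control cells (3 of 10 higher in the irradiated library), and their part was not tested.

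Irradiated and control cells were then set side by side within each class. The Spearman rho between the libraries over the 39 genes was 0.98 in keratinocyte-like, 0.97 in fibroblast-like, 0.95 in mural-like, 0.95 in endothelial-like, 0.93 in tendon-like and 0.86 in lymphatic-like cells. Lower values were found, at 0.66 in macrophage-like, 0.64 in Schwann-like, 0.63 in dendritic-like, 0.44 in neutrophil-like and 0.38 in T and NK-like cells. Macrophage-like cells held 388 irradiated and 283 control Hox UMIs, of which Hoxb4 gave 246 irradiated and 120 control. The rest of these classes held 14 to 76 per library. Many members were thus ranked on few UMIs or none in these classes. The log2 ratio of irradiated to control, summed over all members, was -0.01 (-0.09 to 0.06) in fibroblast-like, 0.03 (-0.04 to 0.10) in endothelial-like, -0.11 (-0.23 to 0.01) in mural-like and -0.00 (-0.04 to 0.04) in keratinocyte-like cells. In progenitor fibroblast-like cells it was -0.19 (-0.31 to -0.07), beside a median of -0.11 over all genes compared in that class. Median log ratio scaling and TMM scaling each raise the ratios of this class by 0.10. The summed ratio was -0.21 (-0.44 to 0.02) in macrophage-like, -0.36 (-0.84 to 0.12) in Schwann-like, -0.53 (-1.33 to 0.26) in dendritic-like and 0.12 (-0.80 to 1.12) in T and NK-like cells. In neutrophil-like cells, with 31 irradiated and 30 control Hox UMIs, it was -1.12 (-1.89 to -0.34), beside a median of -0.37 over all genes compared there. These cells serve here as the gauge of free RNA, and the part of free RNA in that ratio was not tested. With the keratinocyte-like clusters weighted alike, a choice made after seeing the data, that class gave -0.19, and the summed level was lower in the irradiated library in 6 of its 7 clusters.

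In fibroblast-like cells 1 of 24 members was higher, beside 9.35% of all genes, and 1 lower, beside 9.54%. Hoxc13 had 1.71 CPM (0.995 to 2.74) in irradiated and 0.478 CPM (0.299 to 0.723) in control cells, from 17 UMIs in irradiated and 22 in control cells, a log2 ratio of 1.84 (0.84 to 2.82). Within subsets its ratio was 1.64 (-0.0046 to 3.51) in progenitor, 2.36 (-3.36 to 6.00) in injury, 1.37 (-1.25 to 3.60) in myofibroblast and 0.67 (-2.60 to 3.00) in dividing fibroblast-like cells, all above 0 with intervals that included equality. Keratinocyte markers, which mark the cells where Hoxc13 was high, summed in fibroblast-like cells to 160.1 CPM in irradiated and 394 CPM in control cells (1 of 15 higher in the irradiated library), and their part in the result was not tested.

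Hoxd11 had the levels given above, a log2 ratio of -0.81 (-1.35 to -0.31), lost from the size rule under 4 of 14 alternatives, against 2 of 14 for Hoxc13. Within subsets its ratio was 0.24 (-1.13 to 1.57) in progenitor, -0.32 (-1.56 to 0.69) in injury, -0.80 (-2.75 to 0.68) in myofibroblast and -0.01 (-0.94 to 0.81) in dividing fibroblast-like cells, and with the subclusters weighted alike it was -0.20. The progenitor subset, with the lowest control level of Hoxd11, held most of the irradiated class.

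In progenitor fibroblast-like cells 2 of 18 members were higher, beside 7.01% of all genes, and 3 lower, beside 10.9%. Hoxa10 had 31.9 CPM (27.2 to 37.3) in irradiated and 52.5 CPM (47.2 to 58.1) in control cells, a log2 ratio of -0.72 (-0.99 to -0.44), and Hoxa9 13.95 CPM (10.9 to 17.7) in irradiated and 22.3 CPM (18.9 to 26.1) in control cells, a ratio of -0.68 (-1.11 to -0.26). Hoxa5, a gene of the neck and chest region, had 3 UMIs in irradiated and 20 in control cells. Hoxc9 was higher, with 11.1 CPM (8.38 to 14.5) in irradiated and 4.72 CPM (3.25 to 6.62) in control cells, a ratio of 1.24 (0.59 to 1.91), and Hoxc11 had 17.6 CPM (14.1 to 21.7) in irradiated and 11.01 CPM (8.69 to 13.8) in control cells, a ratio of 0.68 (0.22 to 1.14).

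HoxA as a whole gave 38.99% (35.8 to 42.2) of the Hox UMIs in irradiated and 51.2% (48.6 to 53.8) in control progenitor fibroblast-like cells, and HoxC 51.04% (47.7 to 54.3) in irradiated and 38.5% (35.97 to 40.99) in control cells. Of the 11 alternatives run, Hoxa9 was lost from the size rule under 6, Hoxa5 and Hoxc11 under 3 each and Hoxa10 under 2. The automatic doublet thresholds, under which all 4 were lost, moved Hoxa9 to -0.15, Hoxc11 to 0.33 and Hoxa10 to -0.58. They marked 569 control barcodes, as many as the 0.25 limit, and 72 irradiated ones. With them the class was redrawn, to 232 irradiated and 187 control cells, from 240 irradiated and 376 control. The part of that change in the lost calls was not tested. Hoxc9 kept its call under all 11 and lay between 1.02 and 1.35. Red-cell markers in these cells summed to 415 CPM in irradiated and 75.6 CPM in control cells (4 of 4 higher in the irradiated library) and keratinocyte markers to 161 CPM in irradiated and 419 CPM in control cells (1 of 15 higher in the irradiated library), and their part in the result was not tested.

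In endothelial-like cells 0 of 20 members were past the rule, beside 8.08% of all genes higher and 5.3% lower, and the ratios ran from -0.44 to 0.44. Cluster 28, of lower depth (median 5862 UMIs, against 15396 in cluster 7), held 81 irradiated and 20 control cells. In mural-like cells Hoxa11 alone of 17 was higher, with 10.3 CPM (7.31 to 14.2) in irradiated and 6.07 CPM (4.03 to 8.77) in control cells, a log2 ratio of 0.77 (0.03 to 1.53), beside 7.51% of all genes, and 0 were lower, beside 6.26%. That call was lost under 5 of the 11 alternatives run, with a lowest ratio of 0.51. The RNA antisense to Hoxa11, Hoxa11os, had 5.71 CPM in irradiated and 13.2 CPM in the same control cells, and whether the counting kept strands apart is not given in the sources used here.

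In keratinocyte-like cells 2 of 30 members were higher, beside 6.99% of all genes, and 1 lower, beside 7.71%. Hoxb9, a gene of the thoracic region, had 8.98 CPM (8.05 to 9.98) in irradiated and 3.67 CPM (3.17 to 4.22) in control cells, was seen in 19.8% of irradiated and 7.77% of control cells, and had a log2 ratio of 1.29 (1.03 to 1.55). In 6 of the 7 clusters its interval left out equality, with 10.1 CPM in irradiated and 3.14 CPM in control cells of cluster 9, 22.9 CPM in irradiated and 14.9 CPM in control cells of cluster 15 and 5.80 CPM in irradiated and 1.41 CPM in control cells of cluster 20. The ratio lay between 0.97 and 1.35 under all 13 alternatives run.

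Hoxb8, the neighbour of Hoxb9 on chromosome 11, had 1.73 CPM in irradiated and 1.02 CPM in control cells, a log2 ratio of 0.75 (0.22 to 1.30), lost from the size rule under 4 of 13 alternatives, with a lowest value of 0.46. By cluster the ratio was 1.67 (0.26 to 3.17) in cluster 11, between 0.55 and 0.90 in clusters 12, 14 and 15, and -1.72 and -0.84 in clusters 9 and 20, and of these only the interval in cluster 11 left out equality. Hoxb7, the next gene, had 6.39 CPM (5.61 to 7.24) in irradiated and 6.78 CPM (6.10 to 7.51) in control cells, with overlapping intervals. Hoxa4 had 1.02 CPM in irradiated and 1.84 CPM in control cells, a ratio of -0.85 (-1.43 to -0.30), lost from the rule under 1 of 13. By cluster it was -1.11 (-2.27 to -0.11) in cluster 11, the 1 interval that left out equality, -1.95 (-5.22 to 0.37) in cluster 12, -1.07 (-3.05 to 0.47) in cluster 14, and -0.45, -0.16 and 0.32 in clusters 9, 20 and 15, while cluster 26 had 0 irradiated UMIs and 1 control UMI.

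In macrophage-like cells Hoxa7 was the 1 lower member of 4, with 6 UMIs in irradiated and 16 in control cells, beside 11% of all genes, and 0 were higher, beside 6.25%. The class was made up of different shares of its clusters: cluster 16 held 438 irradiated and 45 control cells, cluster 10 had 503 irradiated and 130 control and cluster 1 had 331 irradiated and 655 control. Hoxa7 had 2 irradiated UMIs and 0 control UMIs in cluster 10, and 0 irradiated and 4 control UMIs in each of clusters 0 and 2. Keratinocyte markers in macrophage-like cells summed to 173 CPM in irradiated and 585 CPM in control cells (1 of 15 higher in the irradiated library), and the part of markers and clusters was not tested. Of 2 members in Schwann-like cells and 1 each in dendritic-like and in T and NK-like cells, 0 were past the rule, beside 7.2%, 6.39% and 5.77% of all genes higher and 7.64%, 5.9% and 8.09% lower. Neutrophil-like cells had 0 members to compare, beside 4.94% of all genes higher and 27.1% lower.

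**Figure D5:**
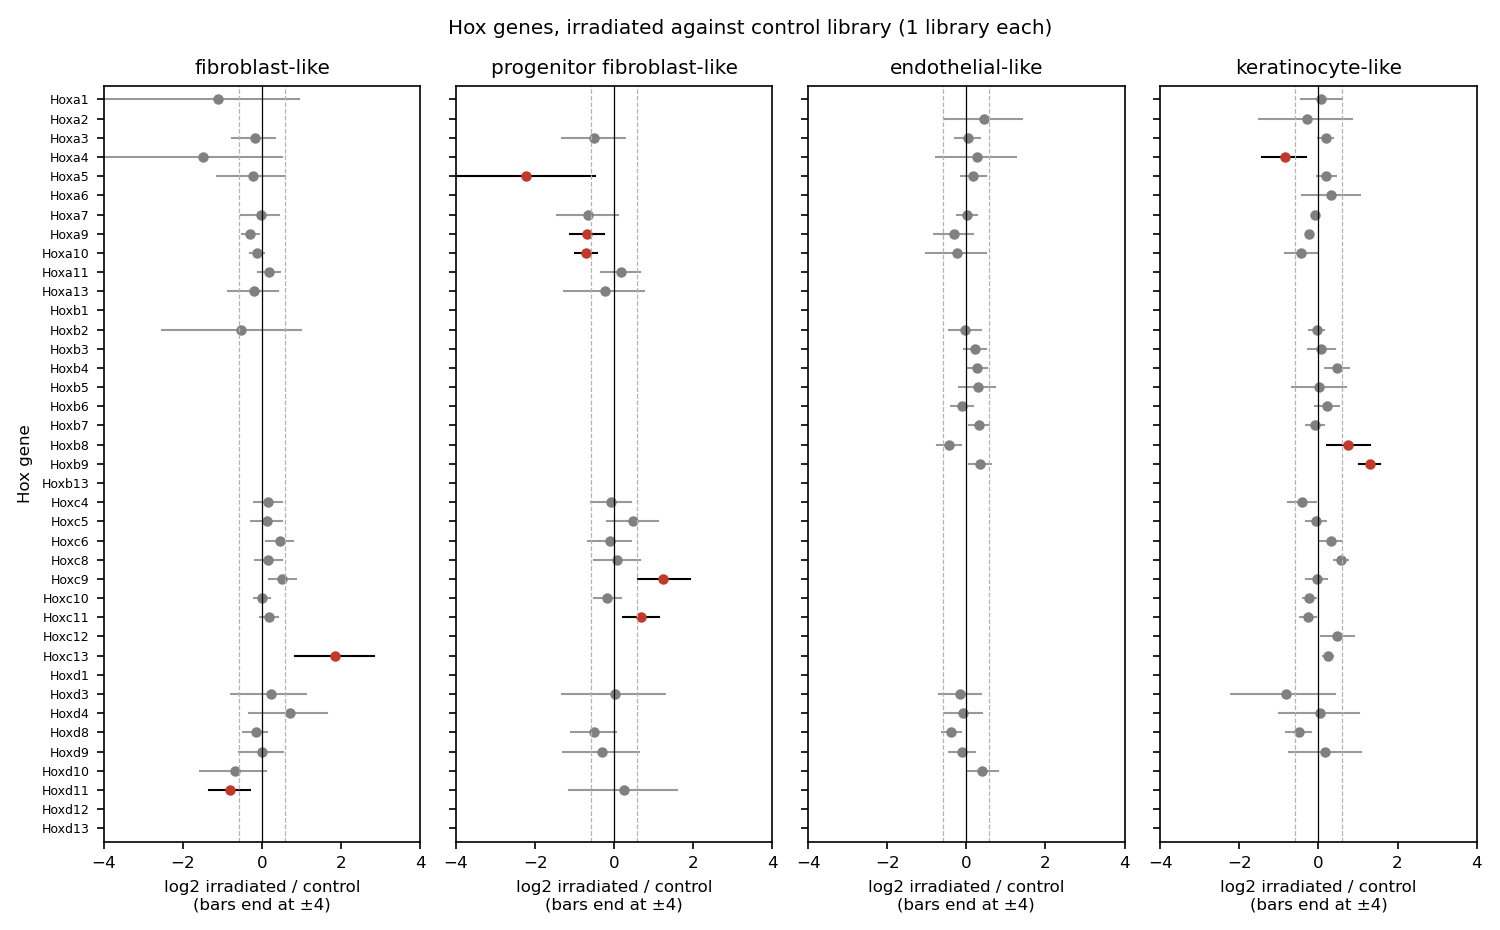
Log2 ratio of irradiated to control for members with at least 20 UMIs over both libraries in fibroblast-like, progenitor fibroblast-like, endothelial-like and keratinocyte-like cells, with 95% intervals (bars end at ±4); red points are past the size rule. The endothelial panel has no red point, and Hoxb9 in keratinocyte-like cells lies at 1.29.

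Other genes of limb identity were read in the same cells. Pitx1 and Tbx4, which specify the hindlimb, had 11.6 CPM in irradiated and 15.7 CPM in control cells (Pitx1) and 9.35 CPM in irradiated and 6.47 CPM in control cells (Tbx4) of the fibroblast-like class, while Tbx5, the gene of the forelimb, had 0.603 CPM in irradiated and 0.347 CPM in control cells. Tendon-like cells had Pitx1 at 19.3 CPM in irradiated and 19.1 CPM in control cells, mural-like cells at 0.544 CPM in irradiated and 1.30 CPM in control cells and endothelial-like cells at 0 CPM in irradiated and 0.103 CPM in control cells. Of the 3 hindlimb genes, all compared, Isl1 was lower in irradiated fibroblast-like cells, beside 9.54% of all genes, and 0 were higher, beside 9.35%. In progenitor fibroblast-like cells 1 of the 3 was higher, Tbx4, with 7.89 CPM in irradiated and 3.001 CPM in control cells, beside 7.01% of all genes, and 0 were lower, beside 10.9%. Isl1 had 11.8 CPM in irradiated and 21.6 CPM in control cells of the whole class. It had 37.02 CPM in irradiated and 38.1 CPM in control injury fibroblast-like cells and 7.89 CPM in irradiated and 5.15 CPM in control progenitor fibroblast-like cells.

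The TALE homeodomain proteins bind DNA beside Hox proteins. Of 9 listed, all compared in fibroblast-like cells, 1 was lower, near the 9.54% of all genes, and 0 were higher, beside 9.35%. The 1 was Pbx3, with 77.1 CPM in irradiated and 128 CPM in control cells, a log2 ratio of -0.73 (-0.84 to -0.62). Meis2 had 66.4 CPM in irradiated and 99.2 CPM in control cells and Pknox2 47.9 CPM in irradiated and 45.3 CPM in control cells. In progenitor fibroblast-like cells 2 of 9 were lower (beside 10.9% of all genes), in endothelial-like cells 2 of 7 (5.3%). Schwann-like cells had 2 of 8 lower (7.64%), dendritic-like 2 of 5 (5.9%) and neutrophil-like 2 of 5 (27.1%). Lower were also 1 of 9 in mural-like (6.26%), 0 of 8 in keratinocyte-like (7.71%) and 0 of 6 in macrophage-like cells (11%). T and NK-like cells had 1 of 4 higher (5.77%) and 0 lower (8.09%), and no other class had a higher one. Of 23 limb and body-region factors, 16 could be compared in fibroblast-like cells, where 2 were higher, beside 9.35% of all genes, and 1 lower, beside 9.54%. Msx1, a factor of the limb bud, had 14.4 CPM in irradiated and 6.49 CPM in control cells, Lmx1b, which patterns the dorsal limb, 3.42 CPM in irradiated and 2.15 CPM in control cells, and Tbx18 26.8 CPM in irradiated and 40.3 CPM in control cells. Prrx1, a marker of limb mesenchyme, had 352 CPM in irradiated and 315 CPM in control cells. The subset make-up of the fibroblast-like class differed between the libraries, and its part in the ratios of these genes was not tested.

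In endothelial-like cells 8 of these 23 factors could be compared: 1 was higher (Irx3), beside 8.08% of all genes, and 5 lower (Prrx1, Prrx2, Tbx15, Gli3 and Twist1), beside 5.3%, with a median log2 ratio of -1.59. Fibroblast markers summed there to 209 CPM in irradiated and 1495 CPM in control cells (0 of 10 higher in the irradiated library). In keratinocyte-like cells 17 could be compared: 1 was higher (Emx2), beside 6.99% of all genes, and 6 lower (Prrx1, Prrx2, Shox2, Tbx15, Tbx18 and Twist1), beside 7.71%. Fibroblast markers summed there to 239 CPM in irradiated and 1091 CPM in control cells (0 of 10 higher in the irradiated library). The part of these markers in the lower counts was not tested. In mural-like cells 15 could be compared, 3 of them higher and 3 lower, beside 7.51% and 6.26% of all genes.

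Of 15 chromatin regulators of the clusters, 1 was higher in fibroblast-like cells, beside 9.35% of all genes, and 0 were lower, beside 9.54%. The 1 was Cbx7, a Polycomb protein, with 2.01 CPM in irradiated and 0.608 CPM in control cells, and the part of the differing subset make-up was not tested. Kdm6b, a demethylase of the Polycomb mark, had 117 CPM in irradiated and 92.4 CPM in control cells and Jarid2 107 CPM in irradiated and 112 CPM in control cells. Of 15 noncoding RNAs and homeobox neighbours listed, 13 were in the feature list and 6 could be compared in fibroblast-like cells, with 0 higher, beside 9.35% of all genes, and 0 lower, beside 9.54%. In keratinocyte-like cells 9 could be compared, with 2 higher (Hotairm1 and Hoxb5os), beside 6.99% of all genes, and 3 lower (Hoxa11os, Hoxaas3 and Hoxd3os1), beside 7.71%. Hotair, from HoxC, had 1.91 CPM in irradiated and 1.91 CPM in control fibroblast-like cells and 0 UMIs in irradiated and 0 in control endothelial-like cells. Hoxa11os had 16.7 CPM in irradiated and 24.1 CPM in control fibroblast-like cells, Hotairm1, from the front of HoxA, 7.24 CPM in irradiated and 6.90 CPM in control cells, and Hoxd3os1 6.13 CPM in irradiated and 6.79 CPM in control cells.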

How the data were processed

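Single-cell RNA was counted in 1 irradiated and 1 control library. Per the submitters' processing notes, reads were processed with Cell Ranger 5 against mm10; what the authors deposited is a matrix of unnormalized UMI counts, genes by cell barcodes. The members and gene lists were chosen with earlier results of these data known. Cells with at least 500 genes, 1000 UMIs, at most 10% mitochondrial UMIs and a Scrublet doublet score of at most 0.25 were kept. That score marked 145 (1.75%) irradiated and 569 (5.00%) control barcodes. Both libraries were clustered together without integration in scanpy 1.11.5 (2000 variable genes without Hox genes, 30 components, 15 neighbours, Leiden resolution 1.0, mesenchyme again at 0.5). Clusters were named from fixed markers with score limits set after seeing the data. The interval and ratio calculations were tested on simulated data. UMIs were summed per class. Ratios carry 95% intervals for counting error, and the size rule asks for 1.5-fold, at least 20 UMIs and, between libraries, 100 cells in each. Genes are named if among the 12 highest in fibroblast-like cells or the 3 highest in another class of at least 200 cells, if past the size rule, or if at 0 everywhere; others were named after their values were seen. TMM factors came from edgeR 4.0.16 on the deposited counts. Gene positions follow GENCODE M21 (GRCm38). Alternatives changed the cell filter, doublet removal, clustering resolution, scaling, UMI minimum, fold and weighting of clusters.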

Additional observations from a re-analysis of the deposited data

Results flagged for a closer look

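For 2 members the ratio of irradiated to control was past the size rule in 1 class and pointed the other way in another, with an interval that left out equality. The difference between the classes was not tested, since each class has 1 library per group. Hoxc11 had a log2 ratio of 0.68 (0.22 to 1.14) in progenitor fibroblast-like cells and -0.26 (-0.46 to -0.07) in keratinocyte-like cells. Hoxb8 had a log2 ratio of 0.75 (0.22 to 1.30) in keratinocyte-like cells and -0.44 (-0.75 to -0.13) in endothelial-like cells.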

How the results depend on the processing

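No alternative run reversed a direction among the called ratios. No paired analysis was possible because each group has 1 library, and for the same reason no replicate could be left out. The summed log2 ratio of endothelial-like to fibroblast-like cells, 1.24 irradiated and 1.20 control, was 1.13 irradiated under the stricter cell filter (1000 genes, 2000 UMIs, 5% mitochondrial), 1.11 control with no doublets removed, 1.26 control as a mean over cells and 1.15 irradiated with the unnamed mesenchymal subclusters added, a choice made after seeing the data. That of keratinocyte-like to fibroblast-like cells, 0.35 irradiated and 0.33 control, was 0.17 irradiated and 0.25 control under the stricter filter, 0.63 irradiated and 0.48 control as a mean over cells, 0.27 control at resolution 2.0, 0.27 irradiated with Hox genes not kept out and 0.26 irradiated with the unnamed subclusters. With Hox genes not kept out, 0 of them were among the 2000 variable genes in the clustering of all cells. HoxB in endothelial-like cells, 52.4% irradiated and 49.2% control, was 49.5% irradiated with automatic doublet thresholds, 49.2% irradiated and 46.7% control with no doublets removed and 50% irradiated at resolution 0.5. HoxC in irradiated fibroblast-like cells, 47.0%, was 44.5% under the stricter filter and 49.3% as a mean over cells. Control fibroblast-like cells with any Hox UMI, 93.6%, were 97.3% under the stricter filter, 94.8% with automatic doublet thresholds and at resolution 0.5, and 95% at resolution 2.0, and thinning to 2000 UMIs gave 26.2% irradiated and 32.9% control. The summed irradiated to control ratio of fibroblast-like cells, -0.01, was 0.057 under the stricter filter, 0.060 with the unnamed subclusters and 0.072 under median scaling, and that of keratinocyte-like cells was -0.19 with clusters weighted alike, also chosen after seeing the data. Members past the size rule in fibroblast-like cells, 2, were 0 under the stricter filter, 1 with a minimum of 50 UMIs, at 2-fold and with subclusters weighted alike, and 4 with the unnamed subclusters. In progenitor fibroblast-like cells 5 became 2 with automatic doublet thresholds and at 2-fold, and 3 at resolution 2.0. With the automatic doublet thresholds tendon-like cells numbered 48 irradiated and 97 control, against 92 irradiated and 334 control. In mural-like cells 1 became 0 under the stricter filter and at 2-fold, 2 with no doublets removed and under median scaling, and 3 with automatic doublet thresholds and at resolution 2.0. In endothelial-like cells 0 became 1 with no UMI minimum and with clusters weighted alike, and in keratinocyte-like cells 3 became 6 with no UMI minimum and 1 at 2-fold. The causes were not tested. Of the called ratios of single members, 114 alternatives kept the call and 31 did not. Under the stricter filter irradiated progenitor fibroblast-like cells numbered 63, too few for a ratio, and mural-like cells have no value when clusters carrying another class are left out.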

Other observations

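The highest summed Hox level of any cluster was found outside the named classes. Cluster 31, led by Hpse2, Igfbp3, Gpc5 and Rspo3 and left unnamed, had 849 CPM (751 to 957) in irradiated and 783 CPM (676 to 902) in control cells, from 31 irradiated and 26 control cells. Its Hoxa9 had 114 CPM in irradiated and 135 CPM in control cells, Hoxa10 88.4 CPM in irradiated and 131 CPM in control cells and Hoxc11 139 CPM in irradiated and 40.8 CPM in control cells, and its Hoxa3 69.5 CPM in irradiated and 77.5 CPM in control cells. Cluster 25, with endothelial and mural genes together, had 415 CPM (372 to 463) in irradiated and 426 CPM (399 to 454) in control cells.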
